A study of Mus musculus with 48 samples.

Results

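Genes of fatty acid uptake by cardiac capillaries, 10 in all, were followed through 48 RNA-seq libraries of mouse endothelial cells and cardiomyocytes. The genes were *Cd36*, *Fabp3*, *Fabp4*, *Fabp5*, *Lpl*, *Gpihbp1*, *Meox2*, *Tcf15*, *Slc27a1* and *Pparg*. They were listed by name for their known role, with earlier results of these data known, and the 10 symbols matched 10 of the 54752 genes in the deposited matrix. All 10 were above 0 in every library and passed the filter on low values in every fit.

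Working heart muscle burns mostly fatty acids, which reach it as triglyceride in lipoproteins or bound to albumin. Lipoprotein lipase, encoded by *Lpl*, is secreted by cardiomyocytes and other parenchymal cells, and GPIHBP1 of the capillary endothelium carries it to the vessel lumen, where it releases fatty acids. CD36 takes up fatty acids at the cell surface, FATP1 (*Slc27a1*) couples uptake to activation with coenzyme A, and FABP3, FABP4 and FABP5 bind fatty acids inside the cell. MEOX2 and TCF15 are transcription factors that act together in heart endothelium on *Cd36* and *Lpl*, and PPARγ (*Pparg*) is a nuclear receptor for fatty acid ligands that drives *Cd36*, *Fabp4* and *Gpihbp1*.

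The mice were males of a Prox1-eGFP knock-in line, labelled C57BL/6 and made in C57BL/6J embryos, in which eGFP marks cells that express *Prox1*, the master gene of lymphatic identity. All groups, controls included, carried this allele. Control mice (ctrl) received vehicle from minipumps, a second group received angiotensin II (angII), a hormone that raises blood pressure and loads the heart, and the third group received angiotensin II with VEGFCc156s, a form of the lymphatic growth factor VEGF-C (angII+VEGFC). Tissue was taken 5 to 6 weeks after pump implantation. The labels give ages of 8 to 16 months, while the study's text gives ages in weeks, so the unit is uncertain. In both heart and diaphragm, lymphatic endothelial cells (LECs) were sorted as CD31-positive and eGFP-positive cells without the leukocyte antigen CD45.2. Blood endothelial cells (BECs) of the heart were the eGFP-negative cells of the same sort, so this gate holds all CD31-positive cells without *Prox1*, not capillary cells alone. Cardiomyocytes were spun down from digested hearts without a sort. Each of the 4 populations had 12 libraries, 4 of ctrl, 5 of angII and 3 of angII+VEGFC, from 13 mice in all. Heart LEC, heart BEC and cardiomyocyte libraries came from the same mice, and 11 diaphragm LEC libraries came from mice whose hearts were also used.

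Expression was given as TPM, which counts transcripts of a gene relative to all those in the same library, corrected for length. TPM keeps no read number, so depth was unknown, and 12924 to 25896 genes per library reached 1 TPM. The labels held against the marker genes. The summed TPM of 6 lymphatic markers was 2932 to 5426 in heart LECs and 6980 to 11063 in diaphragm LECs, against 91.6 to 153 in heart BECs. The sum of 8 cardiomyocyte markers was 8028 to 21128 in cardiomyocytes and at most 1027 in any endothelial library. The cardiomyocyte libraries also held 6 pan and blood endothelial markers at a sum of 508 to 878 and 5 fibroblast markers at 2030 to 3978. The fibroblast sum was 387 to 3562 in heart BECs, 653 to 1484 in heart LECs and 109 to 855 in diaphragm LECs. In bulk samples such as these, fewer cells of a type and less RNA per cell cannot be told apart. The sum of 6 adipocyte markers was at most 28.5 in any library. In cardiomyocytes, one of them, *Cfd*, was at 0.793 to 5.14 TPM in ctrl, 3.79 to 25.8 in angII and 5.30 to 25.2 in angII+VEGFC libraries, while *Adipoq* was at most 1.24.

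In GRCm38 coordinates, *Fabp5* (chr3:10012548-10016607, plus strand) and *Fabp4* (chr3:10204088-10208576, minus strand) lie on one chromosome, as do *Lpl* (chr8:68880491-68907448, plus) and *Slc27a1* (chr8:71568882-71587302, plus). The others are *Cd36* (chr5:17781690-17888801, minus), *Fabp3* (chr4:130308595-130315463, plus), *Gpihbp1* (chr15:75596628-75599481, plus), *Meox2* (chr12:37108540-37179534, plus), *Tcf15* (chr2:152143561-152149097, plus) and *Pparg* (chr6:115360951-115490399, plus). All 10 are protein-coding. Of the 50-base windows in the transcripts of *Fabp3*, 37.3% also occur in transcripts of other genes, most of them in the pseudogene *Fabp3-ps1* (at most 22.9 TPM), so low values of *Fabp3* are uncertain. The share was 5.48% for *Fabp5*, at most 1.43% for *Lpl* and *Slc27a1*, and 0% for the other 6 genes.

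RefSeq promoters (GRCm38.p6) were matched for 5 genes, *Cd36*, *Fabp3*, *Meox2*, *Pparg* and *Slc27a1*, and not for *Fabp4*, *Fabp5*, *Lpl*, *Gpihbp1* or *Tcf15*. The 250 bases before the start are shown for *Cd36* and *Meox2*, which were highest in heart BECs, and for *Slc27a1*, which was lowest there. None of these 3 windows overlaps an annotated exon. Capitals mark any match, on either strand, to AGGTCA (the element bound by nuclear receptors such as PPARγ), TATAAA (the TATA box), GGGCGG (the GC box) or TAATTA (the core bound by homeodomain proteins such as MEOX2).

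Cd36, chr5:17835897-17836146, minus strand: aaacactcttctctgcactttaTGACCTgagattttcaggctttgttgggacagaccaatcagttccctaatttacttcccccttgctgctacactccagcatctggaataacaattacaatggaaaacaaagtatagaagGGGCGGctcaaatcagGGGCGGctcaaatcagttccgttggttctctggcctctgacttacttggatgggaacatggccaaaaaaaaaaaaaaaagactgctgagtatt
Meox2, chr12:37108290-37108539, plus strand: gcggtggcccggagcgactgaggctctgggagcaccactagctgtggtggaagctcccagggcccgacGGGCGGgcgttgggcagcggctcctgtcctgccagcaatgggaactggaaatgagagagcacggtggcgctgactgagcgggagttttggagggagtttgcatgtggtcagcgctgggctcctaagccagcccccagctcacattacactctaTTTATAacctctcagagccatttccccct
Slc27a1, chr8:71568621-71568870, plus strand: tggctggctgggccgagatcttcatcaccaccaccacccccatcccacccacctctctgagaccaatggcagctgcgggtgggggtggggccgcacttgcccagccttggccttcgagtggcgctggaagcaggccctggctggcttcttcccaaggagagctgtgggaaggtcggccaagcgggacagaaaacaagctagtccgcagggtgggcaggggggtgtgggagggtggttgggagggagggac

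The *Cd36* window, which lies inside the gene before an internal start, held AGGTCA in reverse from 228 bases before the start and GGGCGG from 109 and 93 bases before it. The *Meox2* window held GGGCGG from 182 bases before the start and TATAAA in reverse from 29 bases before it. The *Slc27a1* window shown held none of the 4 motifs. The table has another 2 windows for *Slc27a1* at later starts, of which chr8:71570344-71570593 held GGGCGG 3 times and chr8:71569347-71569596 held it 1 time. *Pparg*, also highest in heart BECs, has windows that are not shown. Of these, chr6:115360894-115361143 held AGGTCA and GGGCGG 1 time each. The window chr6:115362099-115362348 held AGGTCA and TATAAA 1 time each and GGGCGG 2 times. Both overlap annotated exons. The window chr6:115421816-115422065 overlaps no exon and held none of the 4 motifs. Over the 32851 promoter windows of the table, AGGTCA was in 14.0%, TATAAA in 12.4%, GGGCGG in 32.7% and TAATTA in 4.84%. A match describes letters only, and binding was not measured.

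Heart BECs held most of these transcripts. The TPM of the 10 genes together was 14161 to 21003 (median 18643) in heart BECs, 4023 to 5779 (median 4628) in cardiomyocytes, 1777 to 8279 (median 3005) in heart LECs and 1465 to 2295 (median 1929) in diaphragm LECs. *Fabp4*, an abundant fatty acid carrier of capillary endothelium and fat cells, was the second most abundant gene of heart BECs by mean TPM and made up 57.3% of the sum there. In diaphragm LECs, the lipase carrier *Gpihbp1* took 67.9% of the sum. The populations were thus set apart by composition as well as by amount.

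**Figure D1:**
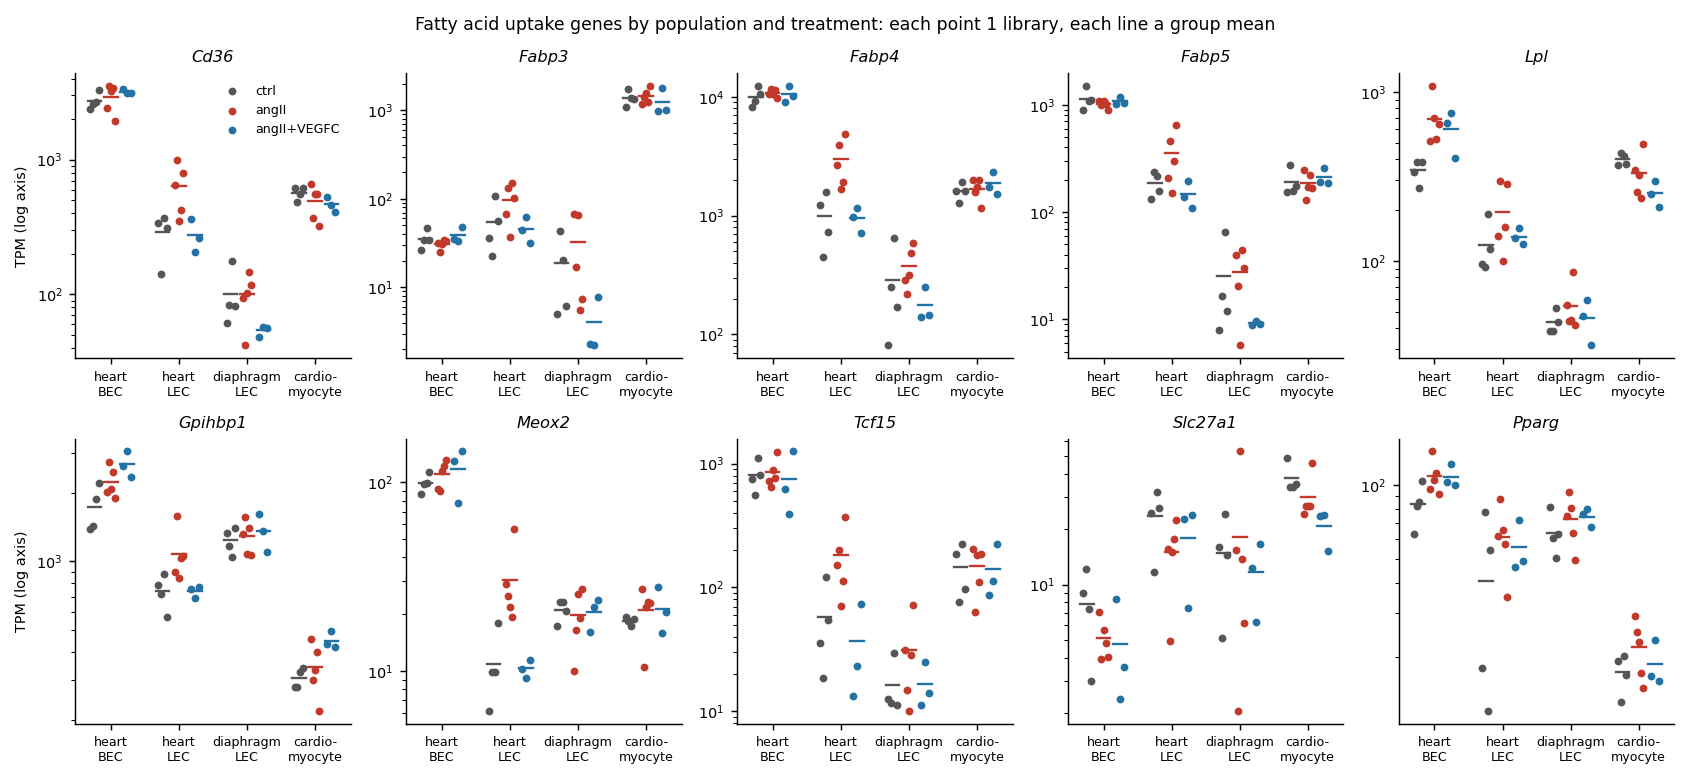
TPM (log axis) of the 10 genes in the 4 populations (x axis), each point 1 library, coloured by treatment, and each line a group mean. *Fabp4* ranges from 8213 to 12310 TPM in heart BECs and from 80.8 to 647 TPM in diaphragm LECs, *Fabp3* is highest in cardiomyocytes, and heart LEC libraries spread widely for *Fabp4*, *Cd36* and *Tcf15*.

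Among the intracellular carriers, *Fabp4* averaged 10475 ± 1285 TPM (SD, n = 12) in heart BECs, 1831 ± 1374 in heart LECs, 1705 ± 322 in cardiomyocytes and 298 ± 182 in diaphragm LECs. Heart LECs and cardiomyocytes, neighbours in this order, were not told apart by the test (adjusted p = 0.154), but *Fabp4* was called lower in heart LECs under quantile normalization (log2 difference -0.62, adjusted p = 0.0414) and without mitochondrially encoded genes (-0.71, adjusted p = 0.00619). *Fabp5*, the epidermal type carrier, was at 893 to 1490.0 TPM in heart BECs (median 1057), 110.2 to 651 in heart LECs (median 199.9), 131 to 274 in cardiomyocytes (median 179) and 5.71 to 64.8 in diaphragm LECs (median 14.2). Here too heart LECs and cardiomyocytes could not be told apart (adjusted p = 0.842). *Fabp3*, the heart type carrier, had another order, with 984 to 1870.1 TPM in cardiomyocytes (median 1342), 22.6 to 151 in heart LECs (median 58.8), 24.9 to 47.7 in heart BECs (median 33.8) and 2.21 to 66.7 in diaphragm LECs (median 7.53). The difference between heart LECs and heart BECs did not pass the test (adjusted p = 0.19), although the heart LEC library was the higher in 10 of 12 mice.

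Of the uptake proteins at the membrane, *Cd36* was at 1925 to 3510 TPM in heart BECs (median 3115), 320 to 655 in cardiomyocytes (median 541), 142 to 991 in heart LECs (median 356) and 41.8 to 178 in diaphragm LECs (median 82.4). The heart BEC libraries overlapped no other population. *Slc27a1* ran the other way, with 15.2 to 48.9 TPM in cardiomyocytes (median 26.7), 4.96 to 31.8 in heart LECs (median 19.97), 2.06 to 52.9 in diaphragm LECs (median 14.1) and 2.4 to 12.1 in heart BECs (median 5.23). Heart and diaphragm LECs were not told apart in it by the test (adjusted p = 0.487), although heart LECs were the higher in 11 of 11 mice. The diaphragm LEC library with the most *Slc27a1* (52.9 TPM) came from mouse 4, whose heart was not used.

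In the lipase pair, *Lpl* was at 269 to 1081 TPM in heart BECs (median 520), 208 to 491 in cardiomyocytes (median 333), 92.3 to 297 in heart LECs (median 138) and 31.7 to 85.6 in diaphragm LECs (median 44.4). *Gpihbp1* was at 1389 to 3037 TPM in heart BECs (median 2146), 1043 to 1621 in diaphragm LECs (median 1320), 568 to 1574 in heart LECs (median 814) and 220 to 492 in cardiomyocytes (median 337). Thus *Gpihbp1* was high in all 3 endothelial populations and was the only one of the 10 genes called higher in diaphragm than in heart LECs.

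Of the transcription factors, *Tcf15* was at 391 to 1254 TPM in heart BECs (median 758), 63.5 to 226 in cardiomyocytes (median 148), 13.2 to 371 in heart LECs (median 71.9) and 10.1 to 72.2 in diaphragm LECs (median 14.4). *Meox2* was at 77.3 to 146 TPM in heart BECs (median 107), and had medians of 21.4 in diaphragm LECs, 19.9 in cardiomyocytes and 14.7 in heart LECs. No library outside heart BECs exceeded 56.6 TPM of *Meox2*. *Pparg* had medians of 101 in heart BECs, 71.0 in diaphragm LECs, 55.9 in heart LECs and 18.1 in cardiomyocytes.

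The first comparison asked where these genes differ between blood and lymphatic endothelium of the heart. In heart BECs, 8 of the 10 genes were higher (limma adjusted p under 0.05), against 8.64% of all 32754 genes tested. *Slc27a1* alone was lower, against 8.94% of genes, and *Fabp3* was not called. The 10 genes had a median log2 difference of 2.12, against -0.15 over all genes. *Tcf15* differed most, with a log2 difference of 3.67 ± 0.30 (SE, adjusted p = 1.48e-11), followed by *Cd36* at 3.04 ± 0.19 (adjusted p = 1.36e-14), *Fabp4* at 2.97 ± 0.22 and *Meox2* at 2.81 ± 0.17. *Fabp5* (2.41), *Lpl* (1.82), *Gpihbp1* (1.38) and *Pparg* (1.06) differed less. *Slc27a1* had a log2 difference of -1.50 ± 0.34 (adjusted p = 0.00122). For each of the 8 higher genes, heart BECs exceeded heart LECs of the same mouse in 12 of 12 mice, and *Slc27a1* was lower in 11 of 12. These counts use the same libraries as the test and are not separate evidence.

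The same genes separated heart BECs from diaphragm LECs. Of the 10, 9 were higher in heart BECs, against 9.01% of all genes, and *Slc27a1* was lower, against 7.54%. *Fabp5* had the widest gap, a log2 difference of 5.98 ± 0.27 (adjusted p = 1.49e-18) with mean levels of 1072 and 23.9 TPM over the 11 shared mice. *Fabp4* (5.42 ± 0.22), *Tcf15* (5.29 ± 0.30) and *Cd36* (5.19 ± 0.19) followed, while *Gpihbp1* differed by 0.74 ± 0.10. The calls of *Pparg* (0.52 ± 0.18, adjusted p = 0.0473) and *Slc27a1* (-1.02 ± 0.34, adjusted p = 0.0338) sat near the threshold and were lost under 15 and 9 alternatives. With ctrl libraries alone, 6 of the 10 genes were called, all higher in heart BECs, against 5.86% of all genes.

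Lymphatic endothelium of the heart and of the diaphragm differed as well. Among the 10 genes, 6 were higher in heart LECs, against 2.67% of all genes, namely *Fabp5* (log2 difference 3.56 ± 0.27, adjusted p = 2.28e-11), *Fabp4* (2.45 ± 0.22), *Fabp3* (2.40 ± 0.36), *Cd36* (2.15 ± 0.19), *Tcf15* (1.62 ± 0.30) and *Lpl* (1.59 ± 0.17). *Gpihbp1* was lower at -0.64 ± 0.10 (adjusted p = 3.07e-05), against 1.88% of genes. *Meox2*, *Pparg* and *Slc27a1* were not called. In ctrl libraries alone, the call of *Fabp3* was lost (1.76, adjusted p = 0.177), and the cardiomyocyte marker sum was 149 to 1027 TPM in heart LECs and 8.21 to 443 TPM in diaphragm LECs over all treatments. The heart LEC libraries also held more *Sox17*, a gene of blood endothelium, with 1.6 to 378 TPM, against 4.44 to 71.3 in diaphragm LECs and 924 to 1993 in heart BECs. Its log2 difference between heart and diaphragm LECs was 2.11 ± 0.47 (adjusted p = 0.0045). The other pan and blood endothelial markers went both ways in the ctrl means of heart and diaphragm LECs. *Emcn* was at 675 and 360 TPM and *Nos3* at 175 and 111 TPM, both higher in heart LECs. *Kdr* was at 302 and 446 TPM, *Pecam1* at 436 and 472 TPM and *Cdh5* at 72.2 and 73.8 TPM. The part of *Sox17*, of the other endothelial markers and of the cardiomyocyte markers in these results was not tested.

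Cardiomyocytes, the cells that burn the fatty acids, were set against heart BECs of the same mice. Of the 10, 8 genes were higher in heart BECs, against 35.7% of all 33308 genes tested, and *Fabp3* and *Slc27a1* were lower, against 6.48%. *Fabp3* had a log2 difference of -5.23 ± 0.32 (adjusted p = 4.03e-18) and *Slc27a1* of -2.20 ± 0.31 (adjusted p = 5.15e-08). The isolation and the sequencing batch of cardiomyocytes cannot be told apart from the population. All genes together had a median log2 difference of 0.37 here, and 25.2% of cardiomyocyte TPM on average was mitochondrially encoded, against 3.40% in heart BECs. Quantile normalization brought the median of all genes to 0.09. *Lpl* was higher in heart BECs at 0.68 ± 0.16, a call that was lost under quantile normalization (0.12) and without mitochondrially encoded genes (0.32), and in ctrl libraries alone the estimate was -0.23. Against heart LECs, 2 of the 10 genes were lower in cardiomyocytes (*Gpihbp1* and *Pparg*), against 51.8% of all genes, and 6 were higher, against 6.73%. The call of *Slc27a1* there (adjusted p = 0.0468) was lost under 13 alternatives, that of *Meox2* under 4 and that of *Cd36* under 2, without mouse 5 or mouse 6. The call of *Pparg* was lost under quantile normalization (0.46, adjusted p = 0.0631) and in ctrl libraries alone (0.83, adjusted p = 0.104). Against diaphragm LECs, the same genes, *Gpihbp1* and *Pparg*, were lower in cardiomyocytes, against 37.8%, and 7 were higher, against 7.79%.

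For 7 of the 10 genes, the levels in cardiomyocytes stood at similar median ratios to those in heart BECs. As a percentage of the heart BEC level of the same mouse, the median over 12 mice was 15.9% for *Fabp4*, 16.3% for *Gpihbp1*, 16.3% for *Tcf15*, 16.8% for *Cd36*, 17.3% for *Pparg*, 18.1% for *Fabp5* and 19.0% for *Meox2*. Over single mice these 7 ran from 9.74% (*Tcf15*) to 30.6% (*Pparg*). The 6 pan and blood endothelial markers had medians of 13.8% (*Cdh5*) to 17.2% (*Pecam1*) by the same measure, and their part in these 7 values was not tested. The other 3 genes stood outside this range. *Lpl* was at 59.4% (23.8 to 154%), *Slc27a1* at 507% (280 to 1176%) and *Fabp3* at 4020% (2104 to 5646%). In ctrl mice alone, *Lpl* was 344 TPM in heart BECs and 399.8 TPM in cardiomyocytes on average.

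**Figure D2:**
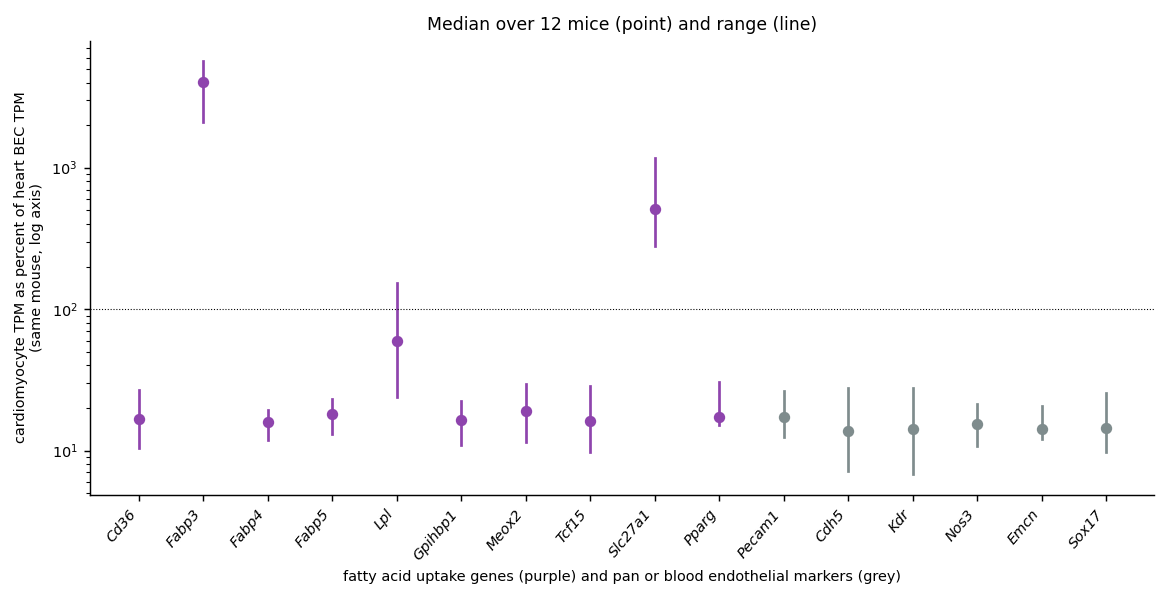
Cardiomyocyte TPM as a percentage of heart BEC TPM of the same mouse (log axis) for the 10 genes (purple) and 6 endothelial markers (grey), with the median over 12 mice as a point and the range as a line. The medians of 7 genes lie between 15.9% and 19.0%, next to those of the markers, and *Lpl*, *Slc27a1* and *Fabp3* lie above.

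The treatments were compared within each population. No gene of the 10 passed an adjusted p of 0.05 in any of the 12 treatment comparisons, in which angII or ctrl libraries are shared. Of all genes tested, 0.0261% were called for angII against ctrl in heart LECs, 0.0892% for the same comparison in cardiomyocytes and 0.663% for angII+VEGFC against ctrl in cardiomyocytes, and 0% in each of the other 9 comparisons. The lowest adjusted p of a member was 0.114, for *Fabp4* in heart LECs. The log2 changes that follow, all on the log2(TPM + 1) scale, are therefore estimates with their SE, and none of them is a called change. Groups said not to overlap describe these libraries only, since the share of all genes without overlap was not counted. Groups also did not overlap for *Cd36* in diaphragm LECs (angII+VEGFC below ctrl) and *Gpihbp1* in heart LECs (angII+VEGFC below angII). In cardiomyocytes, angII+VEGFC lay above ctrl for *Gpihbp1* and below angII for *Slc27a1*, without overlap.

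**Figure D3:**
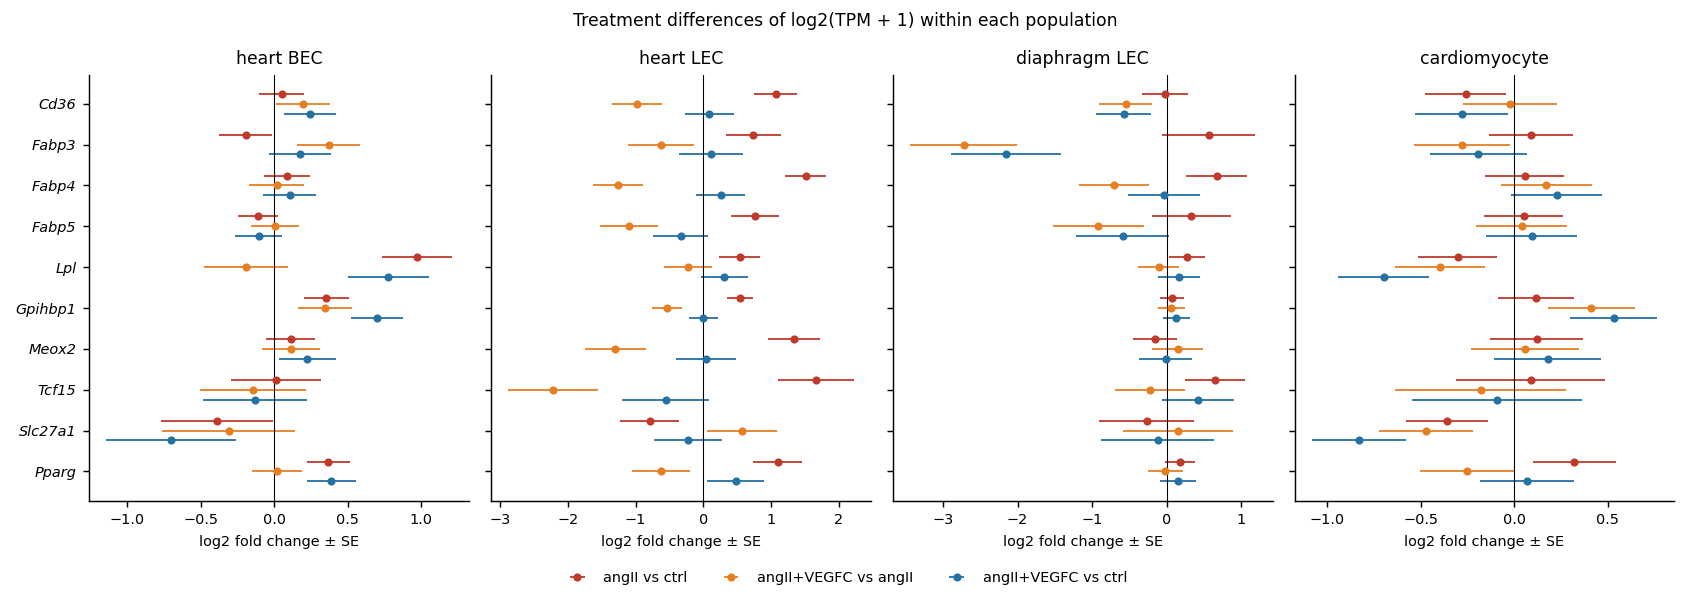
Estimated log2 fold change ± SE of log2(TPM + 1) for the 10 genes in 4 populations, with 3 comparisons by colour and 0 as a vertical line. In heart LECs, 9 of 10 estimates lie above 0 for angII against ctrl and 9 of 10 lie below 0 for angII+VEGFC against angII, while none passed the test over all genes.

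Heart LECs had the largest number of members with an unadjusted p under 0.05. For angII against ctrl there were 7, all higher, against 8.94% of all genes higher by this rule. The 10 genes had a median log2 change of 0.92, against 0.23 over all genes. For angII+VEGFC against angII there were 6, all lower, against 9.75% of all genes, with medians of -0.80 and -0.37. For angII+VEGFC against ctrl there were 0, with 4.94% of all genes at that level. Quantile normalization moved the median of all genes to -0.01 and 0.01 in the first and the second of these, and that of the 10 genes to 0.94 and -0.83. With each library left out in turn, the 7 became 5 to 9, and the 6 became 2 to 7, with 2 when the angII+VEGFC library of mouse 2 was left out. That library had the highest mitochondrially encoded share of TPM among heart LECs, 8.76% against a median of 3.43%. It also had their highest macrophage marker sum, 247 TPM against a median of 51.6 TPM, whose part was not tested. Without mitochondrially encoded genes, the median of the 10 genes for angII+VEGFC against angII was -0.77. The first and second of these comparisons share the angII libraries, so opposite signs in them are not separate evidence.

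*Fabp4* was at 448, 731, 1223 and 1593 TPM in the ctrl heart LEC libraries, at 1662, 1935, 2649, 3970.4 and 4914 TPM in the angII libraries, and at 718, 975 and 1157 TPM in the angII+VEGFC libraries. The angII libraries overlapped neither other group, with mean levels of 3026, 999 and 949.9 TPM in angII, ctrl and angII+VEGFC. The log2 change was 1.51 ± 0.31 for angII against ctrl (limma adjusted p = 0.114) and -1.26 ± 0.37 for angII+VEGFC against angII (adjusted p = 0.413). Within batches, the first of these was 1.00 in batch 1 and 2.27 in batch 2. Without the angII library of mouse 12, *Fabp4* had an adjusted p of 0.00436 and was the only gene of the 10 called in any treatment comparison with a library left out.

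*Meox2* was at 6.16, 9.86, 9.92 and 17.9 TPM in ctrl, at 19.3, 21.7, 25.0, 28.8 and 56.6 TPM in angII and at 9.22, 10.3 and 11.4 TPM in angII+VEGFC heart LECs. Here too the angII libraries overlapped neither other group, while the angII+VEGFC libraries lay within the range of ctrl, and the log2 change was 1.34 ± 0.38 (adjusted p = 0.249) and then -1.30 ± 0.45 (adjusted p = 0.414). Its partner *Tcf15* was at 18.4, 35.4, 54.7 and 122 TPM in ctrl, at 70.3, 113, 152, 199 and 371 TPM in angII and at 13.2, 23.2 and 73.5 TPM in angII+VEGFC. These groups overlapped, and the log2 change was 1.66 ± 0.56 (adjusted p = 0.318) and then -2.22 ± 0.66 (adjusted p = 0.413). *Cd36* was at 142, 309, 339 and 366 TPM in ctrl, at 350, 426, 651, 790 and 991 TPM in angII and at 208, 261 and 361 TPM in angII+VEGFC, with log2 changes of 1.07 ± 0.32 (adjusted p = 0.264) and -0.98 ± 0.38 (adjusted p = 0.424). Its lowest angII library lay within the range of ctrl. The log2 changes of *Fabp5* were 0.76 and -1.10, those of *Gpihbp1* 0.54 and -0.54, and that of *Pparg* was 1.10 for angII against ctrl. Within batches, the *Pparg* change was 1.76 and 0.12. Over the alternatives, the *Fabp5* estimates ran from 0.50 to 1.81 and from -2.61 to -0.89, with 1.81 and -2.61 under library complexity (the number of genes at 1 TPM) as a covariate. *Gpihbp1* was at 0.36 without the ctrl library of mouse 11 and at -0.33 without the angII library of mouse 15. *Tcf15* was at 2.72 and -3.75 with that covariate, and at -1.29 when the angII+VEGFC library of mouse 2 was left out. The other members, *Fabp3*, *Lpl* and *Slc27a1*, had estimates of -0.79 to 0.74 for that comparison.

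*Sox17* was also highest in angII among the heart LEC group means. It was at 1.6 to 132 TPM in ctrl heart LECs, at 82.3 to 378 TPM in angII and at 26.4 to 81.5 TPM in angII+VEGFC, with log2 changes of 3.14 ± 0.77 (adjusted p = 0.171) and -2.82 ± 0.92. The 3 angII libraries with the most *Fabp4* and *Cd36* also held the most *Sox17*, at 294, 319 and 378 TPM. Among ctrl libraries, the one with the most *Fabp4* (1593 TPM) had the least *Sox17* (1.6 TPM), the most *Aplnr* (30.7 TPM) and the least *Prox1* (131 TPM). The related gene *Nrp1* was at 62.7 TPM there, against 101.6 TPM in another ctrl library. The other 5 pan and blood endothelial markers had log2 changes of -0.25 to 0.43 for angII against ctrl, and the summed level of the 6 was 1405 to 2026 TPM in ctrl, 1784 to 2594 in angII and 1609 to 1904 in angII+VEGFC. *Prox1* was at 131 to 205 TPM in ctrl, 97.6 to 230 in angII and 176 to 210 in angII+VEGFC, and no lymphatic marker of 6 had an unadjusted p under 0.05. The cardiomyocyte marker sum ran from 149 to 401 TPM in ctrl, from 179 to 1027 in angII and from 174 to 336 in angII+VEGFC. The sum of 5 pericyte and smooth muscle markers was 42.8 to 166, 87.2 to 304 and 55.6 to 94.1 TPM in these groups. For angII against ctrl, 2 of 6 pan and blood endothelial, 3 of 8 cardiomyocyte, 2 of 3 tested skeletal muscle and 2 of 5 pericyte markers were higher at an unadjusted p under 0.05, and 2 of 5 fibroblast markers were higher and 2 lower. The number of genes reaching 1 TPM was 16131 to 24086 in ctrl, 19957 to 25896 in angII and 16756 to 18884 in angII+VEGFC. The part of these markers in the heart LEC values was not tested. Library complexity was a covariate in an alternative fit, whose *Fabp5* and *Tcf15* estimates are given above.

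**Figure D4:**
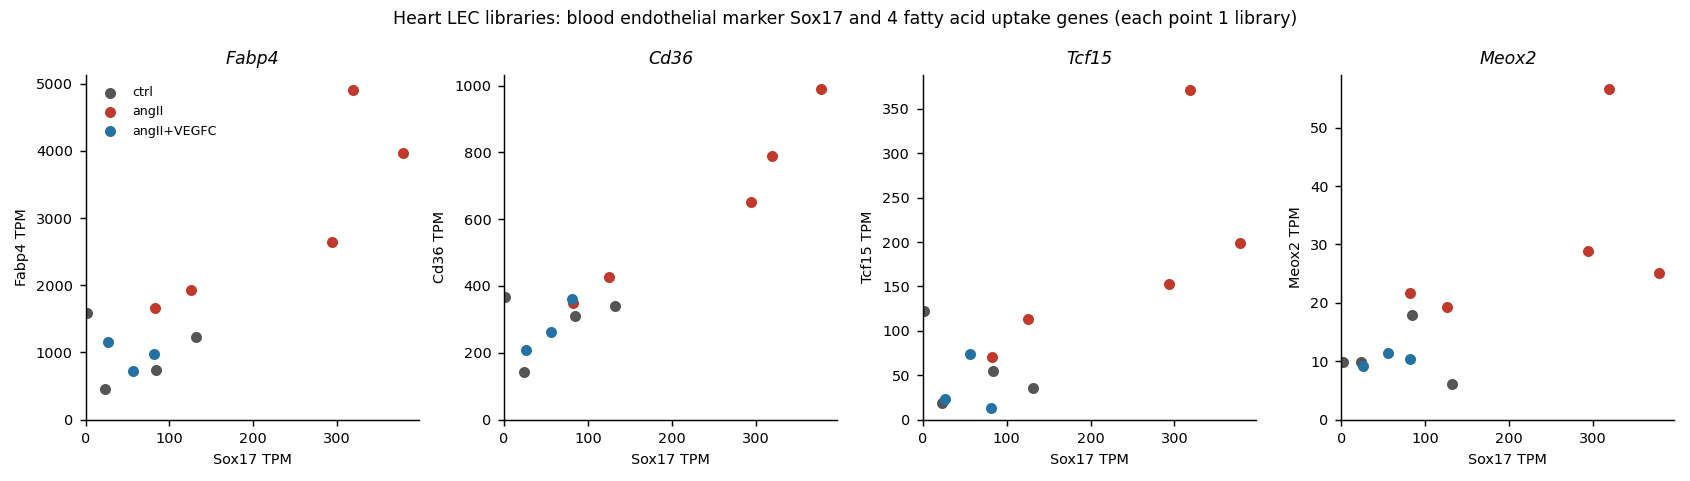
TPM of *Fabp4*, *Cd36*, *Tcf15* and *Meox2* (y axes) against TPM of the blood endothelial gene *Sox17* (x axis) in the 12 heart LEC libraries, coloured by treatment. The 3 libraries above 290 TPM of *Sox17* are all angII and hold the highest *Cd36*. A ctrl library at 1.6 TPM of *Sox17* has 1593 TPM of *Fabp4*. It also has the most *Aplnr* and the least *Prox1* of the ctrl libraries, but not the most *Nrp1*.

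For angII against ctrl in heart BECs, 3 members had an unadjusted p under 0.05, all higher, against 2.57% of all genes, and the same 3, *Lpl*, *Gpihbp1* and *Pparg*, did so for angII+VEGFC against ctrl, against 2.49%. Both comparisons use the 4 ctrl libraries. *Lpl* was at 269, 336, 384 and 386 TPM in ctrl, at 511, 528, 646, 700.03 and 1081 TPM in angII and at 405, 655 and 748 TPM in angII+VEGFC. All 8 libraries of mice with angiotensin II lay above the ctrl libraries, and the log2 change was 0.97 ± 0.24 for angII (adjusted p = 0.671) and 0.77 ± 0.28 for angII+VEGFC (adjusted p = 0.858). Within batches, the angII change of *Lpl* was 1.03 and 0.97, and the angII+VEGFC change was 1.31 and 0.42, the former with 1 angII+VEGFC library. Without the angII+VEGFC library of mouse 6, the latter was 0.46 over both batches. With each library left out in turn, the 3 members became 1 to 4 for angII against ctrl, with 1 when the ctrl library of mouse 1 was left out. That library had a fibroblast marker sum of 3562 TPM, against 508 to 864 TPM in the other ctrl heart BECs and at most 2287 TPM in treated ones. It also had the lowest pan and blood endothelial marker sum of the heart BECs, 3187 TPM. The 6 pan and blood endothelial markers summed to 3187 to 4306 TPM in ctrl, 3919 to 5223 in angII and 4422 to 4787 in angII+VEGFC, and 3 of the 6 were higher in angII at an unadjusted p under 0.05. The part of the endothelial and fibroblast markers in these values was not tested.

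*Gpihbp1* was at 1389, 1431, 1869 and 2207 TPM in ctrl heart BECs, at 1891, 2023, 2084, 2469 and 2723 TPM in angII and at 2345, 2630.3 and 3037 TPM in angII+VEGFC. The angII libraries overlapped both other groups, and angII+VEGFC lay above ctrl. Its log2 change from ctrl was 0.35 ± 0.15 in angII (adjusted p = 0.914) and 0.70 ± 0.18 in angII+VEGFC (adjusted p = 0.73). *Pparg* had a log2 change of 0.37 ± 0.14 in angII and 0.39 ± 0.17 in angII+VEGFC, which was 0.72 and 0.13 within batches and 0.16 without the library of mouse 6. Over the 12 heart BEC libraries, *Gpihbp1* and *Pparg* correlated with Pearson r = 0.90 and *Gpihbp1* and *Slc27a1* with r = -0.71, as a description over libraries that share batches. These were the highest and the lowest r of all pairs of members there. In heart LECs, diaphragm LECs and cardiomyocytes, r was 0.10, 0.60 and 0.40 for the first pair. For the second pair it was -0.44, -0.42 and -0.77. The members that were most abundant, *Fabp4* and *Cd36*, had angII estimates of 0.09 and 0.05 in heart BECs, and all 7 genes past no threshold ran from -0.39 to 0.11. For angII+VEGFC against angII, 0 members had an unadjusted p under 0.05, with 2.59% of all genes at that level.

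**Figure D5:**
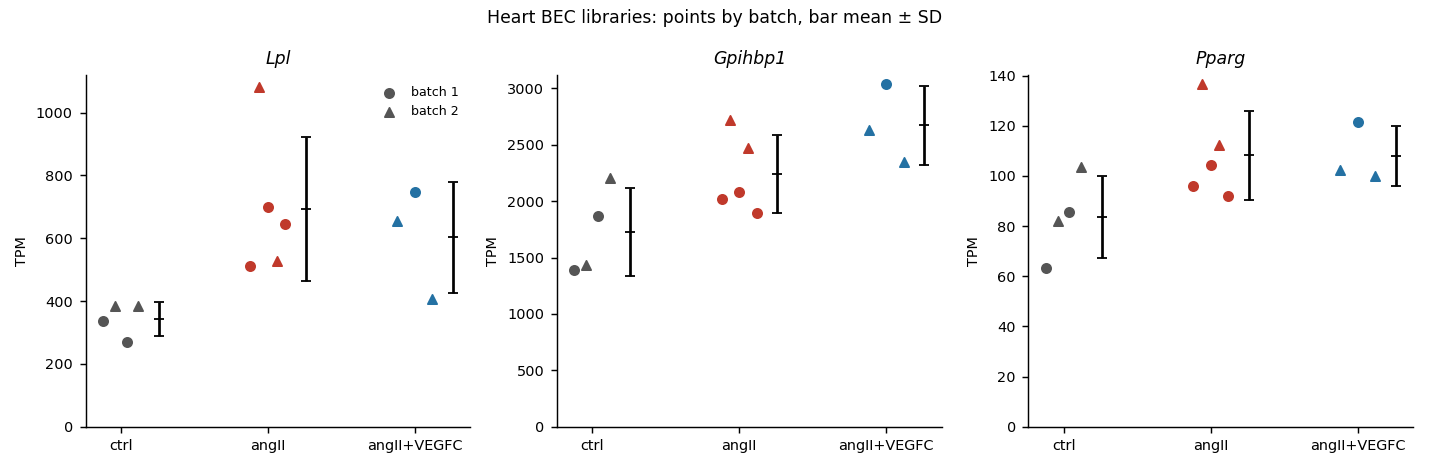
TPM of *Lpl*, *Gpihbp1* and *Pparg* in the 12 heart BEC libraries by treatment (x axis), with circles for batch 1, triangles for batch 2 and bars for the mean ± SD. All angII and angII+VEGFC libraries lie above the ctrl libraries for *Lpl*, the lowest of them at 405 TPM against a ctrl maximum of 386 TPM.

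In diaphragm LECs, only *Fabp3* had an unadjusted p under 0.05. It was lower for angII+VEGFC against angII, against 7.66% of all genes, and against ctrl, against 0.39%, and no member was past that level for angII against ctrl, with 15.3% of all genes. *Fabp3* was at 5.00, 6.19, 20.4 and 43.7 TPM in ctrl, at 5.60, 7.33, 17.1, 65.5 and 66.7 TPM in angII and at 2.21, 2.31 and 7.73 TPM in angII+VEGFC. The log2 change from angII to angII+VEGFC was -2.72 ± 0.72 (adjusted p = 0.567), and the change from ctrl was -2.16 ± 0.74, which lost its unadjusted p under 0.05 without the ctrl library of mouse 5. The 3 libraries with the most *Fabp3* held the highest cardiomyocyte marker sums, 335, 401 and 443 TPM, against at most 168 TPM in the others, and 7 of the 8 cardiomyocyte markers were lower for angII+VEGFC against angII at an unadjusted p under 0.05. The part of these markers in the *Fabp3* values was not tested.

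In cardiomyocytes, 3 members had an unadjusted p under 0.05 for angII+VEGFC against ctrl. *Gpihbp1* was higher, against 8.15% of all genes, and *Lpl* and *Slc27a1* were lower, against 4.7% of genes. *Lpl* was at 370.0, 376, 415 and 438 TPM in ctrl, at 235, 258, 322, 345 and 491 TPM in angII and at 208, 251 and 299 TPM in angII+VEGFC, with a log2 change of -0.70 ± 0.24 (adjusted p = 0.218). All 3 angII+VEGFC libraries lay below ctrl, and angII spanned both. *Slc27a1* had a log2 change of -0.83 ± 0.25 (adjusted p = 0.16), with mean levels of 20.9 and 38.0 TPM and no overlap. Between ctrl and angII+VEGFC cardiomyocytes, the fibroblast marker sum went from 2030.0 to 2838 TPM to 2892 to 3943 TPM, and the cardiomyocyte marker sum from 12037 to 17682 TPM to 8028 to 14183 TPM, which overlap. The macrophage marker sum was 507 to 655 TPM in ctrl and 764 to 1678 TPM in angII+VEGFC, and 4 of the 6 macrophage markers were higher at an unadjusted p under 0.05. Their part in these values was not tested. Under quantile normalization these 2 genes were called, at adjusted p-values of 0.0266 and 0.025. No member was past the unadjusted level for angII against ctrl, with 9.85% of all genes, or for angII+VEGFC against angII, with 2.41%. *Fabp3*, the carrier most abundant in these cells, had estimates of -0.28 to 0.09 over the 3 comparisons.

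Whether a treatment change differed between endothelial populations was tested by the interaction of population and treatment. No member was called in any of the 6 interactions, in which 0.00611% of all genes were called for angII against ctrl between heart and diaphragm LECs and 0% in the other 5. For heart BECs minus heart LECs, 4 members (*Cd36*, *Fabp4*, *Meox2* and *Tcf15*) had an unadjusted p under 0.05 for angII against ctrl, all lower, against 6.37% of all genes. Those 4 and *Gpihbp1* did so for angII+VEGFC against angII, all higher, against 5.87%. The largest of them, *Tcf15*, had a difference of log2 changes of 2.10 ± 0.75 (adjusted p = 0.768). For heart minus diaphragm LECs, *Cd36*, *Gpihbp1* and *Meox2* were higher for angII against ctrl (4.17% of all genes), and *Gpihbp1*, *Meox2* and *Tcf15* were lower for angII+VEGFC against angII (2.89%). *Meox2* had the lowest adjusted p of all, 0.223, at a difference of 1.49 ± 0.39. For heart BECs minus diaphragm LECs, 0 members were past that level for angII against ctrl (11.0% of all genes), and 3 were for angII+VEGFC against angII (6.34%). Without mouse 15, the count of heart minus diaphragm LECs for angII against ctrl went from 3 to 1. Without mouse 2, the last count was 1, as was that of heart minus diaphragm LECs for angII+VEGFC against angII.

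Further genes of the pathway, 60 in all, were described in 4 lists. None of them was called in a treatment comparison or an interaction. Between heart BECs and heart LECs, where 8.64% of all genes were higher, 8.94% lower and the median of all genes was -0.15, 2 of 10 measured genes of lipase processing and lipoprotein receptors were higher and 2 lower, with a median log2 difference of -0.09. *Lrp1*, an endocytic lipoprotein receptor (1.36), and *Angptl4*, an inhibitor of lipoprotein lipase (1.22), were higher in heart BECs. *Pcsk6*, a proprotein convertase (-2.57), and *Vldlr*, a receptor for triglyceride-rich lipoproteins (-2.01), were lower. Of 17 measured carriers, caveolar proteins and acyl-CoA synthetases, 6 were higher and 0 lower (median 0.09), led by *Scarb1*, a lipoprotein receptor (2.85), and *Cavin1*, a coat protein of caveolae (0.86). The lowest estimates of this list, *Fabp1* (-0.50) and *Slc27a5* (-0.42), were not called. The 10 genes of uptake had a median of 2.12 in the same comparison.

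Of 17 nuclear receptors and signals, 5 were higher in heart BECs and 1 lower (median 0.13). The apelin receptor *Aplnr* (4.26) and apelin itself, *Apln* (3.38), were highest. *Vegfb*, a growth factor that acts on endothelial fatty acid transport, was lower (-1.91), and the coactivator *Ppargc1a* (-0.67) was not called. Of 12 genes of lipid droplets and lipolysis, 6 were higher and 3 lower (median 0.39). The lipases *Lipe* (3.23) and *Mgll* (1.96), which release fatty acids from stored lipid, were higher in heart BECs, and the lipolysis inhibitor *G0s2* (-1.11) and the droplet protein *Plin4* (-1.05) were lower.

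The genes whose levels ran most alike over the 48 libraries were sought among the 9810 genes whose mean reached 10 TPM in some population. By Pearson correlation of log2(TPM + 1), *Fabp4* was nearest to *Ly6c1*, *Nrp1* and *Tcim* (r of 0.98 to 0.99), and *Cd36* to *Fabp4*, *Nrp1* and *Tcim* (r = 0.98). *Fabp3* was nearest to *Tnnt2*, *Pln* and *Mb* (r = 0.98), genes of the contractile and calcium machinery and of oxygen storage in muscle. *Tcf15* was nearest to *Pltp*, *Nos2* and *Aplnr* (r of 0.95 to 0.97), *Gpihbp1* to *S1pr1*, *Lbr* and *Fli1* (r of 0.94 to 0.95), and *Fabp5* to *Klhl6*, *Fabp4* and *Cd34* (r of 0.95 to 0.96). *Lpl* was nearest to *Sparcl1*, *Sparc* and *Cd34* (r = 0.92), *Meox2* to *Cyp2d22*, *Arhgap18* and *Adgrl4* (r of 0.91 to 0.92) and *Pparg* to *Nrbp1*, *Als2cl* and *Rin3* (r of 0.91 to 0.94). *Slc27a1* had no close match, with r = 0.78 for *Phyh*, *Acadm* and *Fam69b*. These values mostly describe differences between populations, since the libraries of a population share their isolation.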

How the data were processed

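Libraries were made with a SMART-Seq low-input kit and Nextera XT. Per the labels and the methods of the study, the authors aligned reads to GRCm38 with STAR 2.5.3a, quantified genes of Ensembl release 95 with Salmon 0.12.0 and deposited 1 matrix of TPM values for 54752 genes, of which 54723 have a symbol. Groups, mice, ages and batches came from the labels. The ages of the labels are in months and those of the study's text in weeks, and the labels were used. The cardiomyocyte libraries form a batch of their own. The authors tested counts with DESeq2. TPM values were tested here with limma 3.58.1 (R 4.3.3) on log2(TPM + 1), with a variance trend, a filter that kept genes reaching 1 TPM in 3 libraries or more and Benjamini-Hochberg adjustment over all genes of a fit. Treatments were fitted within a population, adjusted for age and, in endothelial cells, for batch, and populations and interactions in fits over the endothelial or all 48 libraries. In the treatment fits, adjusted p-values measure the spread between mice. The main population and interaction fits had no term for the mouse, so their adjusted p-values measure the spread between libraries. All tests were two-sided.

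The 10 genes and the related lists were chosen with earlier results of these data known. All 10 genes are described by level, those with an unadjusted p under 0.05 by treatment change, and the others by range. Related genes were named for a call in a treatment comparison, or as the 2 largest differences each way per list between heart BECs and heart LECs. *Sox17* and *Prox1* were singled out from the marker lists, and *Aplnr* and *Nrp1* from the related lists, after their values were seen. Same-mouse libraries deviated together only weakly (mean r = 0.036 over 69 pairs), but the labels give the mouse, so it was a block in an alternative. The code was tested on simulated data. Figures were drawn with matplotlib 3.10.9 in Python 3.11.15. Promoters came from RefSeq, and gene positions and transcripts from GENCODE vM21.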

Additional observations from a re-analysis of the deposited data

Results flagged for a closer look

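Among the 80 groups of 4 or 5 libraries of the 10 genes, 7 had a library far from the others of its group. Chance alone marks about 1 group in 20. The groups share mice and libraries, so the 7 are not separate and were not tested against that rate. In heart LECs of angII mice, *Gpihbp1* was at 1574 TPM in mouse 15 and *Meox2* at 56.6 TPM in mouse 14. In ctrl diaphragm LECs, mouse 9 stood apart with 64.8 TPM of *Fabp5* and 29.4 TPM of *Tcf15*. *Slc27a1* stood apart at 52.9 TPM in the diaphragm LECs of angII mouse 4, and in cardiomyocytes at 48.9 TPM in ctrl mouse 1 and at 45.6 TPM in angII mouse 14.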

How the results depend on the processing

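Each of these was changed alone, with a pseudocount of 0.1, all genes kept, quantile normalization, TPM without mitochondrially encoded genes, no covariates, a fit of the 2 treatments compared, 1 surrogate variable, library complexity (genes reaching 1 TPM) as a covariate, the mouse as a replicate block, ctrl libraries alone, and each library or mouse left out. Of 387 alternative values of the 24 treatment changes described, 384 kept their direction and side of the threshold, and of 1200 for the 60 population differences, 1132 did. The number of the 10 genes called moved from 0 to 1 for angII against ctrl in heart LECs without the angII library of mouse 12 (range 0 to 1 over libraries left out), from 0 to 2 for angII+VEGFC against ctrl in cardiomyocytes under quantile normalization, and from 10 to 6 for heart BECs against diaphragm LECs in ctrl libraries alone. With the mouse as a replicate block, 9 genes were called for heart BECs against heart LECs, 10 for heart BECs against diaphragm LECs, 7 for heart against diaphragm LECs, and 10, 8 and 9 for the 3 populations against cardiomyocytes, as without the block, and 0 in each interaction.

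Differences from cardiomyocytes changed sign for 3 genes. *Lpl* in heart BECs went from 0.68 to -0.23 in ctrl libraries alone. *Fabp5* in heart LECs went from 0.06 to -0.59 under quantile normalization, -0.30 without mitochondrially encoded genes, -0.0265 in ctrl libraries alone and -0.0404 to 0.145 with a mouse left out. *Meox2* in diaphragm LECs went from 0.02 to -0.76 under quantile normalization (adjusted p = 0.00112), -0.35 without mitochondrially encoded genes, -0.0327 with the replicate block and -0.0659 to 0.138 with a mouse left out. The cause was not tested. Counts over all genes varied more, from 0 to 473 for angII against ctrl and 0 to 852 for angII+VEGFC against ctrl in cardiomyocytes, where the main counts were 14 and 104. The largest were 473 and 769 with library complexity as a covariate and 852 without the angII+VEGFC library of mouse 8. Depth was unknown, and 3 to 5 mice per group limit the treatment comparisons.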
